A study of Mus musculus with 2 samples.

Results

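Solute carriers are membrane proteins that move small molecules and ions across the plasma membrane and the membranes of organelles without burning ATP themselves, and their genes are numbered by family, such as Slc39 for the zinc importers and Slc25 for the carriers of the mitochondrial inner membrane. The carriers described here were the features of both expression tables whose name starts with Slc, a family number and the letter a or b. The glucose and lactate carriers Slc2a1, Slc2a3, Slc16a1 and Slc16a3 and the vesicular carrier Slc32a1 were left out. The pattern matched 347 names, and 342 remained after these 5 were left out, of 35522 features in all. A carrier was kept for comparison when each sample gave 0.25 RPKM or more, and 143 of the 342 were kept. RPKM is the number of reads on a gene per kilobase of its exons and per 1 M mapped reads (M for mega), so levels of different genes can be set side by side. Of the others, 15 reached 0.25 RPKM only with exosomes, 5 only with PBS, 105 lay below it in both samples and 74 were listed at 0 in both. The name pattern also kept 4 genes whose products are not carriers (Slc9a3r1, Slc9a3r2, Slc4a1ap and Slc7a6os), and it did not reach carriers under other names, which are counted separately further on.

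To see how tumor exosomes change neutrophil RNA, neutrophils were sorted from the bone marrow of BALB/c mice (between 5 and 8 weeks old) as CD11b+ cells high for Ly-6G and low or negative for Ly-6C, with a stated purity of more than 80%. Both cultures contained 10 ng/ml GM-CSF, a growth factor that keeps neutrophils alive. PBS was given to the control culture, and the other (labelled ELV-treated) received 20 µg/ml exosomes, each for 3 days. The exosomes came from SDCSCs, which are sphere-derived cancer stem cells of the murine colon cancer line CT26, so they stand for 1 line, and no vesicles from other cells served as a control in these libraries. Each treatment has 1 library, and the sources do not say whether animals were pooled. There is therefore no spread between replicates, no difference below was tested, and higher or lower describes these libraries alone.

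The depth was estimated at 65.95 M mapped reads in the PBS library and 79.11 M in the exosome library. Deposited RPKM values were used as they stand, and over the 9698 features kept at the same limit the median log2 ratio of exosome to PBS was 0.5264, a ratio of 1.44, so each carrier is also read against that shift. Among the 14 neutrophil marker genes, 11 were at least 2-fold lower with exosomes and 1 (Lcn2) was at least 2-fold higher. Of all features kept 5.62% were lower and 31.5% higher at that limit. The summed RPKM of the 14 markers went from 86647.93 to 34964.56, most of it from S100a9 (43059.08 and 13834.15) and S100a8 (32822.83 and 14381.81). For the 16 macrophage markers in the tables the sum went from 285.85 to 674.81 RPKM, and none was at 0. Of the 9 kept 4 were at least 2-fold higher, beside the 31.5% of all features. The sum was mostly that of Csf1r (58.1 RPKM with PBS and 152.64 with exosomes), Emr1, which encodes F4/80 (20.91 and 151.51), Cd68 (83.91 and 145.79) and Cd14 (117.77 and 208.76), while C1qa was at 0.18 and 1.42 and C1qc at 0.27 and 3.79. Other macrophage markers were not higher, with Maf at 3.16 and 2.82, Vcam1 at 0.25 in both and Cd163 at 0.01 and 0.00563. Summed markers of T and NK cells went from 58.71 to 8.76 RPKM (8 genes, Ncr1 at 0 with PBS, most of the sum from Cd3d at 56.44 and 7.02), those of B cells from 110.2 to 68.04 (8 genes, none at 0), those of dendritic cells from 11.65 to 5.3 (8 genes, none at 0), those of mast cells, basophils and eosinophils from 7.85 to 5.78 (7 genes, none at 0), those of erythroid cells from 2.57 to 0.52 (7 genes, 2 at 0 with PBS) and those of epithelial cells from 1.22 to 1.06 (9 genes, Krt8 and Cldn4 at 0 in both). Not every marker of these cell types fell. Klrb1c (0.01 and 0.51 RPKM) and Cd4 (0.03 and 0.1) were higher among T and NK markers. Xcr1 (0.00681 and 0.1) and Batf3 (0.02 and 0.11) were higher among dendritic markers, where Itgax (8.98 and 4.19) gave most of the sum. Prss34 (0.59 and 1.08) and Ms4a2 (0.14 and 0.25) were higher among those of mast cells and basophils. The part of these cell types in the carrier values was not tested, and fewer cells of a type and less RNA per cell cannot be told apart in bulk RNA.

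In neutrophils, carriers supply amino acids, nucleosides and sugars for protein, RNA and glycogen, move metals out of phagosomes, and exchange metabolites between cytosol and mitochondria. Many amino acid carriers of family Slc7 are light chains that need the heavy chain Slc3a2 to reach the cell surface. Zinc is brought into the cytosol by family Slc39 (ZIP) and taken out of it by family Slc30 (ZnT).

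Carriers moved in both directions around the shift of all genes. Of the 143 carriers kept, 48 (33.6%) were at least 2-fold higher with exosomes, where 31.5% of all features kept were. Another 11 (7.7%) were at least 2-fold lower, where 5.62% of all features were, and 84 stayed within 2-fold. Both shares lie near those of all genes. The median log2 ratio of the carriers was 0.7193, which is 0.1929 above that of all features, and the values ran from -2.0444 (Slc16a14) to 3.1602 (Slc2a9). At a limit of 4-fold, 14 carriers were higher, beside 8.52% of all features, and 1 was lower, beside 1.14%. With the median of all features set to 0, 24 carriers were at least 2-fold higher and 20 at least 2-fold lower, where 16.8% and 13.2% of all features were. A ratio above 1 was found for 111 carriers, and 26 of these fell below the median of all features, so their direction flips with that centring.

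**Figure D1:**
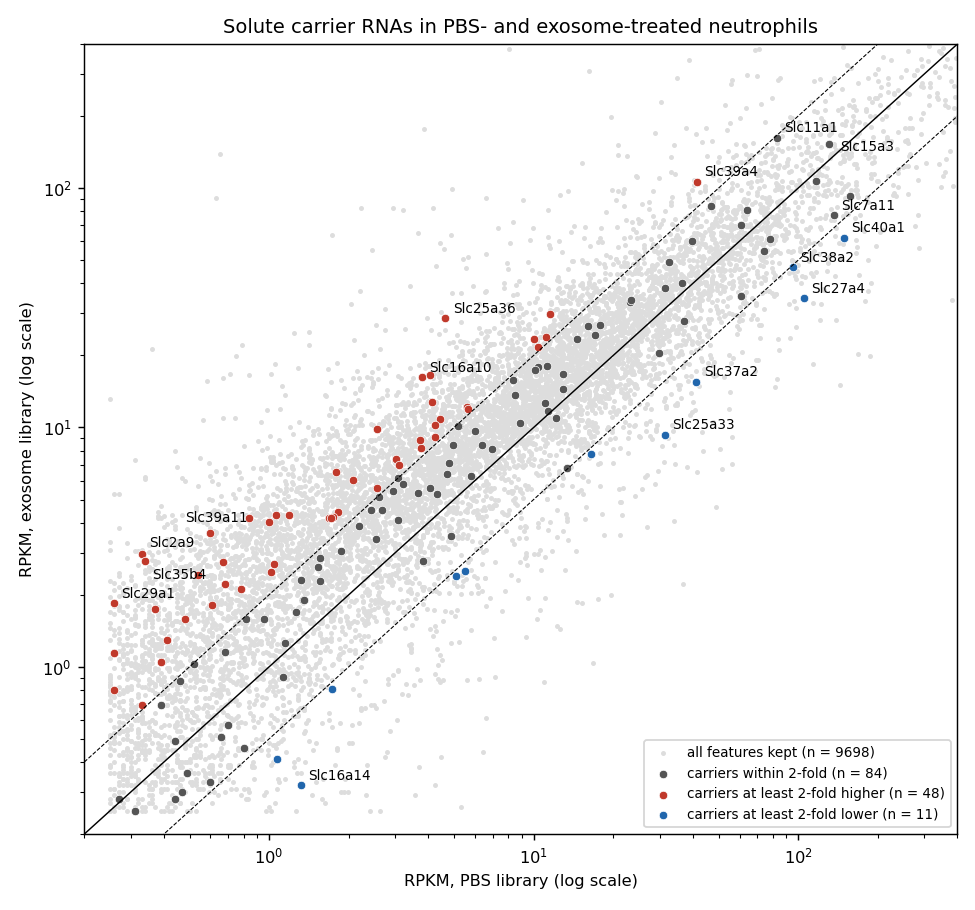
RPKM of each gene in the PBS library (x axis) and the exosome library (y axis), both on log scales drawn to 400 RPKM, with all 9698 features kept in grey and the 143 carriers as colored points. The solid line marks equal values and the dashed lines a 2-fold difference. Of the 48 carriers above the upper dashed line 41 lie below 5 RPKM with PBS, and the 11 below the lower one include Slc27a4, Slc40a1 and Slc38a2 at 95.38 RPKM or more with PBS.

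The total carrier RNA hardly differed, with 2199.89 RPKM summed over the 143 with PBS and 2365.41 with exosomes (ratio 1.075), and the sum of the most abundant carriers was lower while that of the rest was higher. The 10 highest by mean RPKM of both libraries were Slc15a3, Slc6a6, Slc11a1, Slc2a6, Slc7a11, Slc40a1, Slc39a4, Slc25a37, Slc38a2 and Slc27a4, and their sum was 1079.74 RPKM with PBS and 922.29 with exosomes, although Slc11a1, Slc39a4, Slc25a37 and Slc15a3 were each higher. The other 133 summed to 1120.15 and 1443.12 RPKM. Sorted by mean RPKM, the 14 carriers at 50 or more had a median log2 ratio of -0.2453, with 1 at least 2-fold higher and 3 lower, where all features at that level had a median of 0.0382, 12.5% higher and 11.4% lower. The summed RPKM at that level had a ratio of 0.89 for carriers and 0.878 for all features. Between 10 and 50 RPKM, 7 of 34 carriers were higher and 3 lower (all features 18.4% and 5.15%). Between 5 and 10 RPKM, 11 of 21 were higher and 0 lower (34.6% and 3.86%). Between 1 and 5 RPKM, 24 of 53 were higher and 3 lower (50.2% and 4.61%), and below 1 RPKM 5 of 21 were higher and 2 lower (31.7% and 6.34%). Among carriers as among all features, the genes at 50 RPKM or more had the lowest share at least 2-fold higher, and a carrier at a few RPKM is best read beside the 50.2% of its level.

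**Figure D2:**
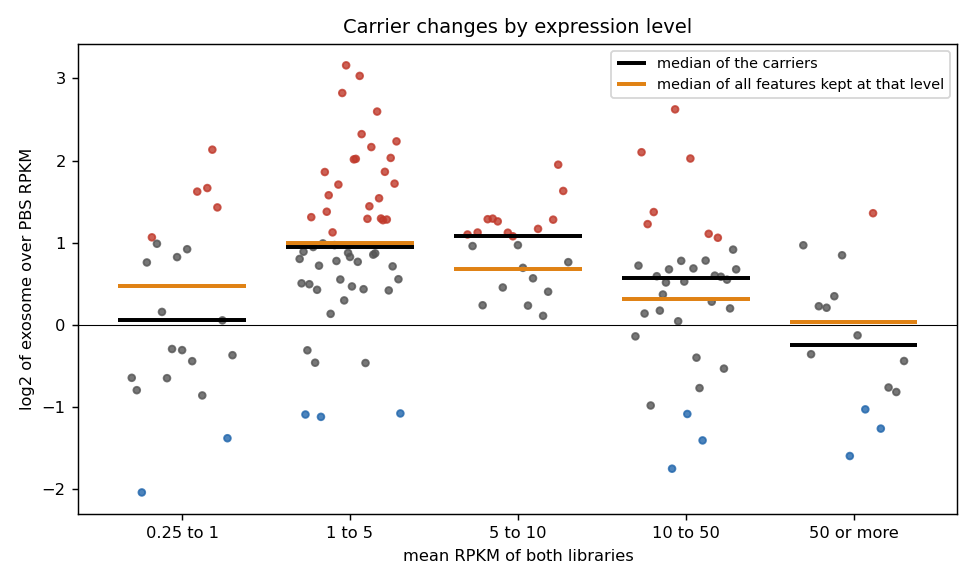
Log2 ratio of exosome to PBS RPKM (y axis) for each carrier, sorted into 5 bins of mean RPKM (x axis), with points in red at least 2-fold higher and in blue at least 2-fold lower. Black bars mark the median of the carriers and orange bars that of all features kept at the same level, and the carrier median is 1.0771 in the bin from 5 to 10 RPKM and -0.2453 at 50 RPKM or more.

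Summed zinc carrier RNA was higher with exosomes, and most of the difference was on the side of import into the cytosol. Of 16 kept, 8 were at least 2-fold higher and 0 lower, a share above the 31.5% of all features and close to the 50.2% of those between 1 and 5 RPKM, where the class median lay (2.57 RPKM with PBS). The median log2 ratio was 0.991 (0.6691 with a pseudocount of 1) and their summed RPKM was 120.26 with PBS and 236.82 with exosomes. In the import family Slc39, 7 of 10 were at least 2-fold higher (median 1.2833). In the export family Slc30 it was 1 of 6 (median 0.7551). With the median of all features set to 0, 3 of the 10 Slc39 genes and 0 of the 6 Slc30 genes were at least 2-fold higher, and 1 Slc39 gene was at least 2-fold lower. Of all features 16.8% were higher and 13.2% lower with that centring. The sum was carried by Slc39a4 (ZIP4, the zinc importer best known from the gut, chr15:76612383-76617384, minus strand), which was at 41.4 RPKM with PBS and 106.13 with exosomes, a log2 ratio of 1.3581 with a 95% counting interval of 1.3205 to 1.3959. That interval covers the sampling of reads and nothing else. Without Slc39a4 the family summed to 53.56 and 86.62 RPKM.

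The less abundant members of Slc39 varied in ratio, some above and some below that of Slc39a4. Slc39a11, a zinc carrier of internal membranes (chr11:113244853-113650079, minus strand), was at 0.6 RPKM with PBS and 3.63 with exosomes (6.05-fold), the largest ratio of the 16. The plasma membrane importer Slc39a1 was at 11.1 and 23.91 RPKM, Slc39a13 at 2.08 and 6.05, Slc39a6 at 1.75 and 4.23, Slc39a3 at 1.02 and 2.5, and Slc39a10 at 0.26 and 0.8. Slc39a13 shares exon sequence with Psmc3 on the other strand, and whether the counting used strand is not given in the sources used here. Slc39a7, which releases zinc from the endoplasmic reticulum, was at 31.35 and 38.07 RPKM, a log2 ratio of 0.2802 that turns negative with the median of all features at 0. Slc39a14, an importer of zinc, iron and manganese, was the Slc39 member lower with exosomes, at 0.6 and 0.33 RPKM, and Slc39a8 was at 0.00818 and 0.06 RPKM, below the limit in both.

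Among exporters, Slc30a5, which loads zinc into the early secretory pathway, was at 4.41 and 10.8 RPKM (2.45-fold). Its partner Slc30a6 was at 2.19 and 3.88, and the Golgi carrier Slc30a7 at 4.04 and 5.58, where a log2 ratio of 0.4659 turns negative with the centring. Slc30a9 was at 11.22 and 18.04 RPKM, and Slc30a4 was the exporter below its PBS level, at 0.49 and 0.36. Slc30a1, the zinc exporter of the plasma membrane and a textbook target of the zinc-sensing factor MTF-1, was at 2.95 RPKM with PBS and 5.41 with exosomes (1.83-fold, log2 ratio 0.8749). The patterns TGCACNC and TGCGCNC, to which MTF-1 binds, were searched on both strands in the 250 bases before each RefSeq start (build GRCm38.p6). Of the 143 carriers 111 had such a window, some of them several, and 35 (31.5%) held a match in at least 1 window, as did 33.7% of the 7199 kept features and 23.8% of all 27025 genes with a window. A match was found for 13 of 38 carriers at least 2-fold higher, 21 of 65 within 2-fold and 1 of 8 at least 2-fold lower. The windows of Slc30a1 (chr1:191906531-191906780, plus strand) and Slc39a11 (chr11:113650093-113650342, minus strand, 1 of 2 starts) are shown as the zinc exporter that MTF-1 is known to control and the zinc carrier with the largest ratio, with matched letters in capitals. In Slc30a1 the first block of capitals is a match to TGACNNNGC, a pattern of the antioxidant response element, and the second is the metal pattern, both read on the reverse strand. Each run is printed 5′ to 3′ on the strand of the gene.
Slc30a1: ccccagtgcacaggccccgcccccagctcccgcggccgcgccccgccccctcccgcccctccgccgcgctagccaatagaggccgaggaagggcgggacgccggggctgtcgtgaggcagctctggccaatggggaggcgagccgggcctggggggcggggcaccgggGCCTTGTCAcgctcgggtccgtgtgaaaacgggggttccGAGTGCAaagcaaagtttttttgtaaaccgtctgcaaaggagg
Slc39a11: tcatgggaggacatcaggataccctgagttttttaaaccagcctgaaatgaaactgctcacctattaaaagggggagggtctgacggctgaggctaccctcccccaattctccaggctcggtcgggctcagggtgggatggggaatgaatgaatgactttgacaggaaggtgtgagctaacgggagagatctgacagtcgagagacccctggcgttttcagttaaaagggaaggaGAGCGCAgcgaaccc

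**Figure D3:**
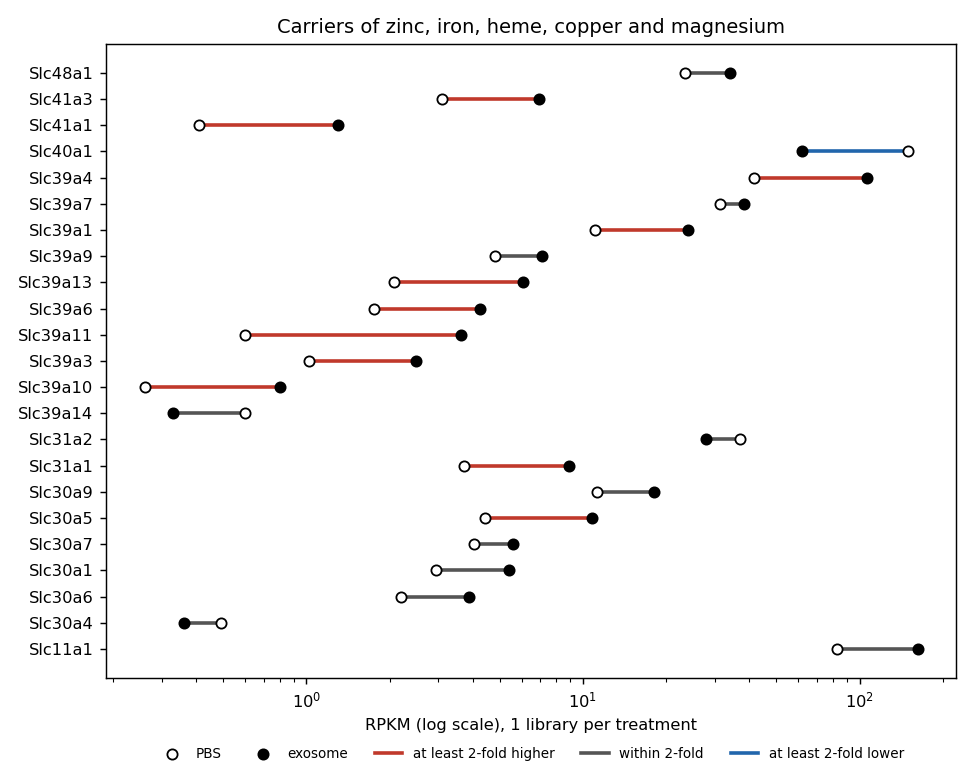
RPKM on a log scale (x axis) of the 23 kept carriers of zinc, iron, heme, copper and magnesium (y axis), with open circles for PBS and filled circles for exosomes, 1 library each. The filled circle lies to the right for 14 of the 16 zinc carriers, and Slc40a1, at 149.34 and 62.07 RPKM, is the metal carrier with a blue line.

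Iron carriers differed in direction. Slc40a1, ferroportin, the iron exporter of the plasma membrane (chr1:45908068-45926523, minus strand), was at 149.34 RPKM with PBS and 62.07 with exosomes, which is 2.41-fold lower (log2 ratio -1.2666, counting interval -1.2916 to -1.2417). Slc11a1, Nramp1, which pumps iron and manganese out of the phagosome (chr1:74375195-74386062, plus strand), was at 82.9 RPKM with PBS and 162.11 with exosomes, a ratio of 1.96 just under the 2-fold limit. Slc40a1 stood above Slc11a1 with PBS and below it with exosomes. The endosomal iron importer Slc11a2 was at 0.24 and 0.85 RPKM, just outside the limit in PBS. Slc48a1, which carries heme out of lysosomes, was at 23.29 and 34.06 RPKM, close to the shift of all genes. Copper entry through Slc31a1 was at 3.72 and 8.9 RPKM (2.39-fold), whereas the vesicular copper carrier Slc31a2 was at 36.88 and 27.91. Over the 5 kept carriers of iron, heme and copper the sums were 296.13 and 295.05 RPKM. Both magnesium carriers kept were higher, Slc41a1 with 0.41 and 1.3 RPKM and Slc41a3 with 3.09 and 6.94, and Slc24a6 (now Slc8b1), the sodium-calcium exchanger of mitochondria, was at 11.48 and 29.72 RPKM.

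Amino acid carriers had the highest share of genes at least 2-fold higher among the classes of 5 or more, 10 of 18 with a median log2 ratio of 1.1845, and yet their summed RPKM was lower with exosomes (318.79 and 290.94). The share, 55.6%, stands beside 31.5% of all features and 50.2% of those between 1 and 5 RPKM, where the class median lay (2.535 RPKM with PBS). All features at that level had a median log2 ratio of 1.0. The class median was 0.8171 over the 12 genes at 1 RPKM or more in both libraries and 0.8057 with a pseudocount of 1. With the median of all features set to 0, 7 of the 18 were at least 2-fold higher and 2 lower, where 16.8% and 13.2% of all features were. The sum rests on Slc7a11 and Slc38a2. Slc7a11, xCT, which imports cystine in exchange for glutamate and feeds glutathione synthesis (chr3:49892526-50443614, minus strand), was at 136.22 RPKM with PBS and 77.12 with exosomes (log2 ratio -0.8208, counting interval -0.8362 to -0.8053). Slc38a2, which takes up glutamine and other small neutral amino acids and is induced by amino acid shortage (chr15:96687392-96699730, minus strand), was at 95.38 and 46.64 RPKM, a log2 ratio of -1.0321 just past the limit. Both lay well above every other amino acid carrier in the PBS library, where the next was Slc3a2 at 39.78 RPKM. They were also the members of the class that were lower with exosomes, so a higher sum without them was set by leaving them out. The other 16 carriers summed to 87.19 RPKM with PBS and 167.18 with exosomes. Of these 10 were at least 2-fold higher, where 31.5% of all features were.

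Light chains that pair with Slc3a2 were higher with exosomes, apart from Slc7a11. The heavy chain Slc3a2 itself was at 39.78 and 60.2 RPKM, a log2 ratio of 0.5977 close to the shift of all genes. Slc7a7 (y+LAT1), which exchanges arginine and lysine against neutral amino acids (chr14:54369442-54417780, minus strand), was at 4.14 RPKM with PBS and 12.81 with exosomes, a log2 ratio of 1.6296 with a counting interval of 1.5014 to 1.7598. Its exons overlap those of Oxa1l on the other strand. Slc7a8 (LAT2) was at 0.37 and 1.74 RPKM and Slc7a6 (y+LAT2) at 0.48 and 1.58. The leucine carrier Slc7a5 (LAT1) stayed within 2-fold at 1.87 and 3.06 RPKM, a log2 ratio of 0.7105 beside 0.5264 for all features. The 4 light chains other than Slc7a11 summed to 6.86 RPKM with PBS and 19.19 with exosomes. Slc7a11 remained the most abundant light chain in both libraries. Slc7a1, which imports arginine and lysine without a heavy chain, was at 0.67 and 2.74 RPKM (4.09-fold), and the inducible arginine carrier Slc7a2 was at 0.00579 and 0.04 RPKM.

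Carriers of other families that move the same substrates were also higher. The aromatic amino acid carrier Slc16a10 was at 3.78 RPKM with PBS and 16.22 with exosomes (4.29-fold). Slc36a4, a carrier of proline and tryptophan, was at 0.84 and 4.2 RPKM (5.0-fold), and Slc38a6 at 0.54 and 2.42 (4.48-fold). The glutamine carriers Slc1a5 (1.69 and 4.19 RPKM) and Slc38a1 (0.78 and 2.12 RPKM) were 2.48-fold and 2.72-fold higher, against the direction of Slc38a2. Slc43a2, a carrier of branched-chain amino acids, was at 10.4 and 21.67 RPKM, a ratio of 2.08 just above the limit. Lysosomal members stayed within 2-fold, with the arginine-sensing Slc38a9 at 1.56 and 2.85 RPKM and Slc36a1 at 6.93 and 8.14, where a log2 ratio of 0.2322 turns negative with the centring.

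**Figure D4:**
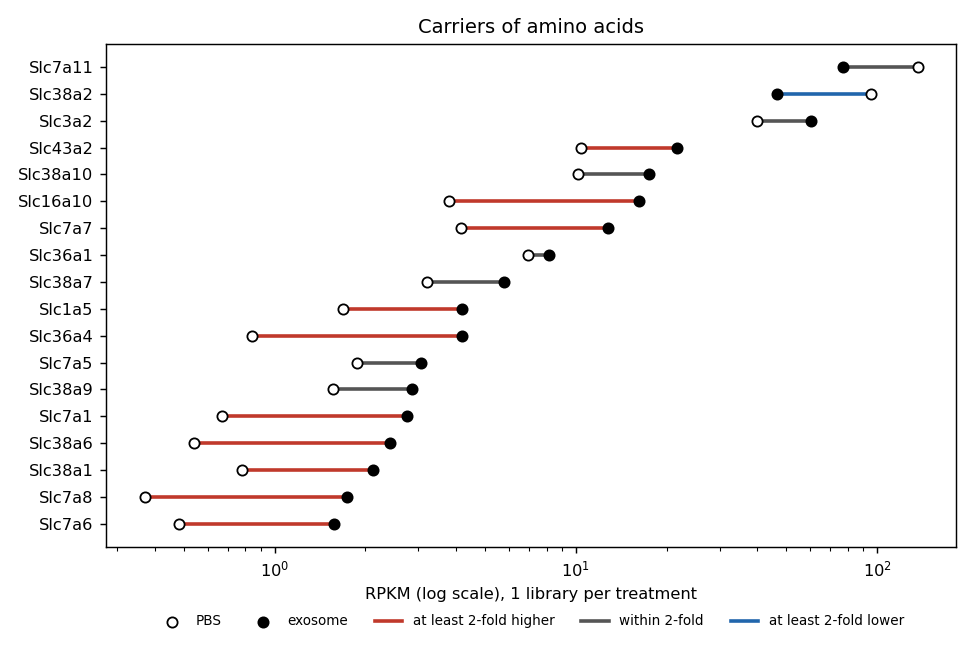
RPKM on a log scale (x axis) of the 18 kept amino acid carriers (y axis, sorted by mean RPKM), with open circles for PBS and filled circles for exosomes, 1 library each. Slc7a11 and Slc38a2 are the carriers whose filled circle lies to the left, and the other 16 lie to the right.

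The cystine, arginine and glutamine carriers are known in other cells as targets of ATF4, the transcription factor of amino acid shortage, so the pattern TGATGNAA that it binds was searched in the same windows. Of the 111 carriers with a window, 4 (3.6%) held it, Slc7a11, Slc7a7, Slc50a1 and Slc9a9, beside 2.47% of the kept features and 3.91% of all genes. In Slc7a11 (chr3:50443614-50443863, minus strand) the pattern occurs on either strand, and Slc7a11 was lower with exosomes. The window of Slc7a7 (chr14:54417945-54418194, minus strand, 1 of 5 starts) holds it once, 141 bases before the start, and Slc7a7 was higher. Both are printed here, matches in capitals, since they carry the same pattern and went in opposite directions.
Slc7a11: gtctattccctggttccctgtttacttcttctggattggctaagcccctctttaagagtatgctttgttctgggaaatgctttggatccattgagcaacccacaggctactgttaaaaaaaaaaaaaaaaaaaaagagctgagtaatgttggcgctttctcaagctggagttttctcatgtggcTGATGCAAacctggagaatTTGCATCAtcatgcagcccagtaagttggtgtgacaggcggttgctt
Slc7a7: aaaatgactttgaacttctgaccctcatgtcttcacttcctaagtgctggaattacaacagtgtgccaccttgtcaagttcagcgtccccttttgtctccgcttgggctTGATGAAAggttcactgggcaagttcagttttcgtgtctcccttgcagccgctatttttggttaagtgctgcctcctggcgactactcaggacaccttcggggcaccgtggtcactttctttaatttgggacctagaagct

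Nucleoside carriers showed the highest median among classes of at least 2 genes, 2.0786 over 4 genes. It was 1.1601 over the 2 genes at 1 RPKM or more in both libraries and 0.9683 with a pseudocount of 1, under which Slc43a3 also fell within 2-fold. Slc29a1 (ENT1), the equilibrative nucleoside carrier of the plasma membrane (chr17:45585200-45599606, minus strand), was at 0.26 RPKM with PBS, just above the limit, and at 1.84 with exosomes. The log2 ratio was 2.8231 with a counting interval of 2.3371 to 3.3501, which rests on about 38 and 322.6 reads. Slc28a2, which takes up purine nucleosides with sodium, was the most abundant of the class, at 4.06 and 16.52 RPKM (4.07-fold), and the purine nucleobase carrier Slc43a3 was at 0.26 and 1.14 RPKM. The lysosomal carrier Slc29a3 was at 4.31 and 5.29 RPKM, and its log2 ratio of 0.2956 turns negative with the centring. Slc28a3 was at 0.02 and 0.3 RPKM. A window of Slc29a1 (chr17:45595247-45595496, minus strand, 1 of 8 starts) is shown since it held 3 matches within a short stretch. Its first and last capitals match the metal pattern, and the last adjoins a CACGTG, the E-box that MYC and TFEB bind, which 18 of the 111 carriers (16.2%), 10.4% of kept features and 6.86% of all genes held.
Slc29a1: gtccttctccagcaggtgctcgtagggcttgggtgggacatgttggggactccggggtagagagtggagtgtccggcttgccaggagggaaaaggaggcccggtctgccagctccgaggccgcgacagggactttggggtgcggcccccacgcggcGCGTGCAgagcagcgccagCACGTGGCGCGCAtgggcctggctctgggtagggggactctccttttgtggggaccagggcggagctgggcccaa
The antioxidant pattern TGACNNNGC was found in 22 carriers (19.8%), beside 14% of kept features and 11.5% of all genes. By call, the E-box was held by 7 of 38 carriers higher, 10 of 65 within 2-fold and 1 of 8 lower, and the antioxidant pattern by 8, 11 and 3. A match of letters is no evidence that a factor binds there.

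The carriers of the mitochondrial inner membrane formed the largest class, and their median change lay close to that of all genes. Of 31 kept, 7 (22.6%) were at least 2-fold higher and 1 (3.2%) lower, where 31.5% and 5.62% of all features were. Their median log2 ratio was 0.6739, beside 0.5264 for all features, and their sums were 377.4 and 525.48 RPKM. The widest contrast was between a pair with the same substrate. Slc25a36, which carries pyrimidine nucleotides (chr9:97074961-97111157, minus strand), was at 4.64 RPKM with PBS and 28.6 with exosomes, 6.16-fold higher with a counting interval of the log2 ratio of 2.5488 to 2.7005. Slc25a33, the other pyrimidine nucleotide carrier (chr4:149744036-149774277, minus strand), was at 31.46 and 9.32 RPKM, 3.38-fold lower with an interval of -1.8447 to -1.6668. Summed, the pair was at 36.1 RPKM with PBS and 37.92 with exosomes, with Slc25a33 above Slc25a36 in PBS and the order turned round with exosomes.

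The abundant members stayed within 2-fold apart from that pair. The ADP-ATP exchanger Slc25a5 (chrX:36795651-36798807, plus strand) was at 46.97 and 84.42 RPKM (1.80-fold). Genes with many processed copies such as Slc25a5 are uncertain here, since how reads matching several places were counted is not given in the sources used here. Its relative Slc25a4 was at 1.53 and 2.62 RPKM, and the phosphate carrier Slc25a3 at 60.56 and 69.87. Slc25a37 (mitoferrin 1), which brings iron into mitochondria for heme and iron-sulfur clusters, was at 63.83 and 81.16 RPKM and Slc25a28 (mitoferrin 2) at 14.63 and 23.34. The log2 ratios of Slc25a3 (0.2063) and Slc25a37 (0.3465) turn negative with the centring. Metabolite carriers included the citrate exporter Slc25a1 (3.08 and 6.12 RPKM, a ratio of 1.99 just under the limit), the oxoglutarate carrier Slc25a11 (32.53 and 48.98) and the carnitine carrier Slc25a20 (12.93 and 16.68), the last with a log2 ratio of 0.3674 that also turns negative. The glutathione carrier Slc25a40 was among the higher ones, at 0.68 and 2.22 RPKM (3.26-fold), while its relative Slc25a39 was at 10.4 and 17.83 (1.71-fold). The glutamate carrier Slc25a22 was at 1.04 and 2.7 RPKM and the ATP-magnesium carrier Slc25a25 at 0.61 and 1.82, and the median of the 6 amino acid carriers of mitochondria was 0.1632, which turns negative with the centring. Slc25a17, the peroxisomal member of the family, was at 3.76 and 8.19 RPKM.

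Sugar carriers held the largest ratio among the 143 carriers kept. Slc2a9, which carries urate and hexoses (chr5:38349273-38503143, minus strand), was at 0.33 RPKM with PBS and 2.95 with exosomes, 8.94-fold higher with a counting interval of the log2 ratio of 2.8321 to 3.5218. The abundant lysosomal hexose carrier Slc2a6 was at 116.9 and 106.79 RPKM, and Slc2a8 was at 0.24 and 0.67, just outside the limit in PBS. Sugar-phosphate exchangers of the endoplasmic reticulum went apart. Slc37a2 was at 41.23 RPKM with PBS and 15.51 with exosomes (2.66-fold lower), and Slc37a4, the glucose 6-phosphate carrier whose loss causes neutropenia in glycogen storage disease, was at 1.82 and 4.45 (2.45-fold higher). Slc50a1 was at 4.23 and 10.27 RPKM. Over the 8 kept sugar carriers 3 (37.5%) were at least 2-fold higher and 1 (12.5%) lower, where 31.5% and 5.62% of all features were. Their median of 0.2699 lay below that of all features.

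Nucleotide sugar carriers feed the glycosylation of proteins in the Golgi, and 4 of 9 were at least 2-fold higher and 0 lower (median 0.9691), beside 31.5% of all features and 34.6% of those between 5 and 10 RPKM. With the centring 2 were higher and 1 lower, beside 16.8% and 13.2% of all features. Slc35b4, which carries UDP-xylose and UDP-N-acetylglucosamine (chr6:34153380-34177111, minus strand), was at 0.34 and 2.78 RPKM (8.18-fold), and Slc35a1, the CMP-sialic acid carrier, at 1.06 and 4.3 (4.06-fold). Slc35a3 was at 5.61 and 12.2 RPKM, although its exons overlap those of Gm43191 on the same strand, and Slc35a4 at 5.65 and 11.92, with exons shared with Apbb3 on the other strand. The most abundant of them, Slc35a5, was at 60.6 and 35.47 RPKM (log2 ratio -0.7727), and it was the member of the 9 below its PBS level. Slc33a1, which brings acetyl-CoA into the endoplasmic reticulum, was at 1.0 and 4.04 RPKM.

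Several of the most abundant carriers were lower with exosomes. Slc27a4, a fatty acid carrier and acyl-CoA synthetase (chr2:29802634-29817522, plus strand), was at 105.39 RPKM with PBS and 34.75 with exosomes, 3.03-fold lower with a counting interval of the log2 ratio of -1.6324 to -1.569. The taurine carrier Slc6a6 (chr6:91684053-91759066, plus strand) had the highest level of any carrier in PBS, 157.57 RPKM, and was at 92.67 with exosomes (log2 ratio -0.7658). Its relative Slc6a12, the betaine carrier used in osmotic stress, went the other way, with 2.55 and 9.85 RPKM. Slc12a9, of the cation-chloride family, was at 4.24 and 9.08 RPKM. Slc16a14, an orphan of the monocarboxylate family (chr1:84905898-84935134, minus strand), was at 1.32 and 0.32 RPKM, the largest decrease of the 143, on about 279.2 and 81.2 reads. The ketone body carrier Slc16a6 was at 36.4 and 39.99 RPKM, a log2 ratio of 0.1357 that turns negative with the centring, and Slc16a7 at 0.68 and 1.15. Others at least 2-fold lower were the ascorbate carrier Slc23a2 (5.49 and 2.52 RPKM), the sulfate and chloride carrier Slc26a11 (16.48 and 7.75), the endosomal sodium-proton exchanger Slc9a9 (5.08 and 2.4) and the vesicular nucleotide carrier Slc17a9 (1.73 and 0.81). Slc22a15 lay just inside the 2-fold limit with 13.38 and 6.76 RPKM.

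Carriers of the remaining classes gave smaller groups. Slc15a3, which moves histidine and peptides out of lysosomes, had the highest mean RPKM of the 143, with 130.81 with PBS and 152.85 with exosomes, and its exons overlap those of Tmem132a on the other strand. Slc15a4, a relative known for Toll-like receptor signaling in endosomes, was at 16.09 and 26.49 RPKM, with a log2 ratio of 0.7193. The log2 ratio of Slc15a3, 0.2246, turns negative with the centring. The bicarbonate carrier Slc4a7 was at 6.39 and 8.44 RPKM, with a log2 ratio of 0.4014 that turns negative. Over the 5 sodium and proton exchangers and the 4 bicarbonate and chloride carriers, 0 were at least 2-fold higher and 2 were lower, 1 in each class. Of all features 31.5% were higher and 5.62% lower at that limit. The phosphate importer Slc20a1 was at 10.03 and 23.45 RPKM (2.34-fold), the sulfate carrier Slc26a2 at 3.02 and 7.36, and the choline carriers Slc44a1 and Slc44a2 at 17.8 and 26.68 and at 29.79 and 20.55 RPKM. Of the 4 vitamin carriers 2 were higher, the riboflavin carrier Slc52a2 (1.72 and 4.18 RPKM) and the biotin carrier Slc5a6 (0.39 and 1.05). Single kept members of their classes, the urea carrier Slc14a1 and the vesicular amine carrier Slc18a2, were at 0.8 and 0.46 and at 1.13 and 0.91 RPKM. The organic cation carrier Slc22a4 was at 2.54 and 3.41 RPKM (log2 ratio 0.4249, negative with the centring), Slc10a3 at 12.11 and 10.97, and the lysosomal sialic acid carrier Slc17a5 at 2.43 and 4.5.

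**Figure D5:**
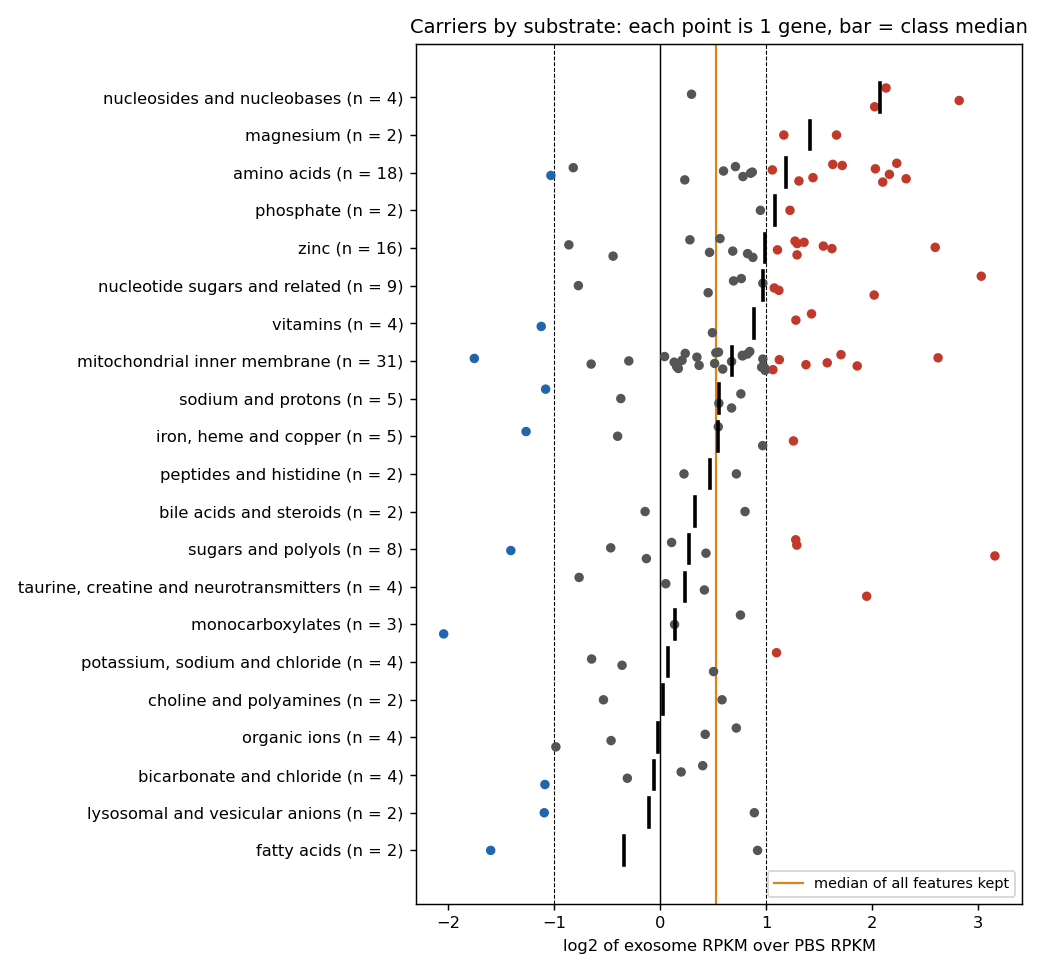
Log2 ratio of exosome to PBS RPKM (x axis) for the 133 kept carriers in the 21 substrate classes (y axis) that hold at least 2, 1 point per gene, with a black bar at the class median and an orange line at 0.5264, the median of all 9698 features kept. Nucleosides (median 2.0786), magnesium and amino acids (1.1845) stand highest, over 4, 2 and 18 genes, and fatty acids (-0.3406) stand lowest over 2.

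Of the 4 kept genes that are not carriers, the scaffold Slc9a3r1 was at 74.5 and 54.81 RPKM and its relative Slc9a3r2 at 1.07 and 0.41, whereas Slc4a1ap was at 1.79 and 6.51 and Slc7a6os at 8.35 and 15.74. Leaving these 4 out gave 47 carriers higher and 10 lower of 139. Exons of 18 of the 143 overlap a protein-coding exon of another gene, among them, beside those already named, Slc4a1ap, Slc5a6, Slc10a3, Slc16a6, Slc25a11, Slc25a25 and Slc48a1.

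Carriers below the limit in 1 library numbered 20. The highest of them were Slc25a43 at 0.12 RPKM with PBS and 1.32 with exosomes, Slc23a3 at 0.93 and 0.22, Slc11a2 at 0.24 and 0.85, Slc25a26 (the mitochondrial S-adenosylmethionine carrier) at 0.13 and 0.72, and Slc2a8. Slc16a9 was at 0.00851 RPKM with PBS, which is about 2.1 reads, and at 0.54 with exosomes, about 160.5 reads. Just inside the limit lay Slc26a8 (0.31 and 0.25 RPKM) and Slc6a4, the serotonin carrier (0.27 and 0.28), and just outside it lay Slc24a5 (0.24 in both) and Slc46a3 (0.23 and 0.43). The folate carriers Slc19a1 (0.17 and 0.12) and Slc46a1 (0.03 in both) and the sodium-potassium-chloride carrier Slc12a2 (0.08 and 0.06) were below it in both. Family Slc22, the organic ion carriers of liver and kidney, had 10 members below the limit and 12 at 0 in both libraries, and family Slc6, the neurotransmitter carriers, had 6 and 9.

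Transport genes of other classes were counted from lists. Of 27 kept genes of the ABC family, whose proteins use ATP, 13 were at least 2-fold higher and 1 lower (median log2 ratio 0.9441). The higher ones included the cholesterol exporters Abca1 (0.67 and 16.11 RPKM) and Abcg1 (1.98 and 9.81). The 27 also include Abce1 (2.78 and 14.33 RPKM), Abcf1 (9.21 and 17.02), Abcf2 (5.22 and 13.35) and Abcf3 (9.3 and 11.08). Abce1 and the Abcf proteins are not membrane transporters. Of 27 kept genes listed as carriers under other names 9 were higher and 4 lower (median 0.4625, which turns negative with the centring). The lysosomal Mfsd1 was at 9.52 and 48.95 RPKM and Mfsd6 at 69.78 and 28.38. Unc93b1, which is in that list but is a trafficking chaperone of Toll-like receptors and not a known carrier, was at 101.71 and 163.18. Of 18 kept ion pumps 4 were higher and 0 lower (median 0.2823, which also turns negative). These lists were read against the same 31.5% and 5.62% of all features.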

How the data were processed

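Poly(A) RNA of both cultures was made into TruSeq libraries and sequenced on a HiSeq 2500. The authors trimmed reads at a Phred limit of 20, mapped them in CLC Genomics Workbench 8.0 (mm10 per the labels) and deposited RPKM per feature, rounded to 0.01 above 0.01. The gene annotation, the handling of multi-mapping reads and the use of strand are not given in the sources used here. The groups were read from the sample titles.

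Depth was estimated from RPKM values that stand for 1 read and GENCODE M21 transcript lengths (287 of 994 low features in PBS and 343 of 1160 with exosomes gave the same total within 1%). These reads gave exact Clopper-Pearson 95% intervals of each log2 ratio, which cover counting error only. Of 143 carriers, 136 had an interval excluding 0, a count not made over all features and not set against their median of 0.5264. Genes were kept at 0.25 RPKM in both libraries and compared at a ratio of 2, with no pseudocount and no test, since each group has 1 library.

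The members, the substrate classes, the lists and the alternatives were chosen with earlier results of these data known. Named carriers were those at a ratio of 4 or more (or 0.25 or less), the 10 highest by mean RPKM, the highest of each class and a fixed list. Other members of a class were named after their values were seen. A few genes that these rules name are not reported here. Sums without chosen genes, and the windows printed, were also chosen after the values were seen. Coordinates are from GENCODE M21 (GRCm38) and windows from RefSeq (GRCm38.p6, 1-based). Scripts were tested on simulated reads. Python 3.11.15, pandas 2.3.3, numpy 2.4.6, scipy 1.17.1 and matplotlib 3.10.9 were used. Median centring, subtraction of the trimmed mean log ratio (30% of ratios and 5% of levels at each end), TPM rescaling, other RPKM limits, a pseudocount of 1 and a ratio of 4 were tried.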

Additional observations from a re-analysis of the deposited data

How the results depend on the processing

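No paired analysis was possible because each treatment has 1 library, and for the same reason no replicate could be left out. As deposited, 48 carriers were at least 2-fold higher and 11 lower, with a median log2 ratio of 0.7193. Median centring gave 24 higher, 20 lower and a median of 0.1929 (all features 16.8% and 13.2%), and subtraction of the trimmed mean log ratio, 0.5415, gave 23, 22 and 0.1778 (16.4% and 13.6%). With RPKM of at least 1 in both libraries 31 of 106 carriers were higher (25.6% of all features), and with any RPKM above 0 in both 78 of 234 were higher and 28 lower, with a median of 0.5941 (32.3% and 10.3%). A pseudocount of 1 gave 26 higher, 5 lower and a median of 0.5169 (20.4% and 4.12%), and a ratio of 4 gave 14 and 1. Rescaling to TPM gave 54 higher and 10 lower (33% and 5.16%).

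Of 68 named carriers, 43 had the same call under each scaling, RPKM limit and pseudocount in which they had a value. At 1 RPKM in both libraries 53 of the 68 had one, and the ratio of 4 was not compared in this way. The median of the 4 nucleoside carriers, 2.0786 as deposited, was 1.1601 over the 2 at 1 RPKM or more and 0.9683 with the pseudocount. Centring and the trimmed mean each changed 18, among them Slc39a4, Slc39a1, Slc1a5, Slc38a1, Slc31a1 and Slc20a1, which then stayed within 2-fold, and Slc7a11 and Slc6a6, which then were at least 2-fold lower. The pseudocount changed 9, and TPM changed 3 (Slc11a1, Slc25a1 and Slc38a2), all near the limit. The calcium class, 1 gene at 0.25 RPKM, reversed to a median of -0.415 over 7 genes at any RPKM above 0, by the added low genes. RPKM rounding limits ratios of genes near 0.25.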
